A study of Homo sapiens with 6 samples.

Results

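The integrated stress response is read here through 10 genes: ATF4 itself and DDIT3, PPP1R15A, TRIB3, CHAC1, DDIT4, SESN2, ASNS, PSAT1 and PHGDH. They were picked by symbol as known parts of the ATF4 programme, with earlier results of these data known. All 10 were found, once each, among the 27420 listed genes. RNA came from A673 and SKNMC, established human Ewing sarcoma cell lines, each kept for 6 h in the vehicle DMSO, in 50 nM THZ1 or in 200 nM THZ1. THZ1 is a covalent inhibitor of CDK7, a kinase that phosphorylates RNA polymerase II. Both lines were grown in the same serum-containing medium, and the labels name no inducer of the stress response, so the DMSO libraries give the basal level of each gene. Each of the 6 conditions has 1 library. No difference could therefore be measured against a spread between replicates, so the values are described without tests or p-values.

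In the integrated stress response, kinases that sense amino acid lack, misfolded protein, double-stranded RNA or haem lack phosphorylate the initiation factor eIF2. General translation falls, while ATF4 mRNA, whose upstream reading frames normally hold translation back, is translated more. ATF4 protein, a bZIP transcription factor that pairs with C/EBP factors, then binds C/EBP-ATF response elements near genes for amino acid supply, for feedback and, when stress lasts, for cell death. RNA levels show the transcripts of this programme and not the translation of ATF4.

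Levels are given in FPKM, fragments per kilobase of transcript relative to all mapped fragments, so genes can be compared per length. A change is the log2 ratio of the THZ1 library over the DMSO library of its line after 1 FPKM was added to both, and this addition makes the changes of weakly expressed genes look smaller. A gene was taken as active where it had more than 1 FPKM in the DMSO library of its line, and all 10 genes were active in both lines. Because FPKM measures shares, a loss common to all transcripts would not be seen. In bulk RNA, fewer cells that express a gene cannot be told apart from less of its RNA per cell. Ribosomal protein genes made up 13.7%, 16.1% and 17.7% of the summed FPKM in A673 under vehicle, 50 nM and 200 nM THZ1, and 19.01%, 24.7% and 29.7% in SKNMC. These shares were higher at each higher dose, beside every change described here, and their part in those changes was not tested. All 9 markers of Ewing sarcoma cells looked up, FLI1, NR0B1 and NKX2-2 among them, stood at or above 3.60 FPKM in every library. Their presence checks the cell type, and not which line or dose a label names. Of the markers of other cell types, KRT5 is listed at 0 throughout, DES, MYOD1 and EPCAM stayed at or below 0.826 FPKM, and the blood cell marker PTPRC was at or below 0.0291 FPKM in A673 but at 7.90 to 13.1 FPKM in SKNMC.

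The core of the C/EBP-ATF response element, TGATGNAA on either strand, was searched in RefSeq promoter windows of 300 bases (250 before and 50 after a transcription start; table build GRCh38.p14). All 10 genes had a window, and 2 of them, ASNS and CHAC1, held the core, against 4.46% of the 27305 gene symbols with a window. Both are shown, as the only members with the core. On the values as deposited, CHAC1 was at least 2-fold lower in every comparison with DMSO and ASNS in none. Each match is printed in the sense of the gene, 30 bases long, with the matched letters in capitals.
ASNS, chr7:97501770-97501799 (GRCh37, minus strand): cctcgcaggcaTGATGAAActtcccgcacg
CHAC1, chr15:41245449-41245478 (GRCh37, plus strand): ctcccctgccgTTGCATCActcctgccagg
The ASNS match spans positions -68 to -61 from the RefSeq start on the gene strand, which is also 5′ UTR in longer annotated transcripts of ASNS. The CHAC1 match spans positions -209 to -202, reads TGATGCAA on the opposite strand, and is 5′ UTR in a longer annotated transcript of CHAC1. A match describes the letters alone, and binding was not measured here. The absence of these letters from the windows of the other genes says nothing of binding farther away.

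With DMSO the 10 genes spanned a wide range of levels. In A673 they ran in order from ATF4 (256 FPKM) through PHGDH (140), PSAT1 (114), ASNS (47.2), PPP1R15A (24.9), TRIB3 (17.7), DDIT3 (13.7), CHAC1 (4.79) and DDIT4 (3.87) to SESN2 (3.13). SKNMC had the same 4 genes on top, ATF4 at 225, PHGDH at 151, PSAT1 at 105 and ASNS at 42.5 FPKM, and the lowest were SESN2 at 3.44 and CHAC1 at 3.07 FPKM. Between the lines, DDIT4 was at 3.87 FPKM in A673 and 25.8 in SKNMC, 6.67 times as high in the latter. PPP1R15A differed the other way, with 24.9 against 10.7 FPKM, a log2 ratio of 1.15. These were the only members that differed at least 2-fold between the untreated lines, 1 of 10 lower in A673 and 1 of 10 higher, where 8.96% of the genes active in both lines were lower and 6.93% higher. The ratio of PPP1R15A was 0.99, just short of 2-fold, after 75th-percentile scaling. The other 8 members had log2 ratios between -0.11 and 0.53.

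DDIT3, PPP1R15A, TRIB3 and CHAC1 were at least 2-fold lower in each of the 4 comparisons with DMSO, though with 75th-percentile scaling CHAC1 fell short in A673 and PPP1R15A in SKNMC, both at 200 nM. ATF4 was so in A673 at 50 nM alone, SESN2 at 200 nM in both lines and DDIT4 in none. The amino acid enzymes ASNS, PSAT1 and PHGDH did not reach a 2-fold change in any, except that ASNS in SKNMC at 200 nM was at -1.03 with ribosomal protein scaling. In A673, 5 of 10 members were at least 2-fold lower at 50 nM, where 15.9% of all active genes were, and 5 of 10 at 200 nM, where 25.3% were. In SKNMC it was 4 of 10 at 50 nM, against 15.8%, and 5 of 10 at 200 nM, against 27.3%. With the 75th percentile as scale the counts were 5 and 4 in A673, against 11.02% and 17.3% of active genes, and 4 and 4 in SKNMC, against 10.3% and 13.4%. With the ribosomal protein median as scale they were 5 and 5 in A673, against 21.2% and 34.7%, and 5 and 7 in SKNMC, against 25.4% and 49.5%. No member was 2-fold higher in any comparison with DMSO, as were 0.343% of active genes in A673 at 50 nM, 0.126% at 200 nM, 0.471% in SKNMC at 50 nM and 0.462% at 200 nM. The 4 members lower in all comparisons stand against 8.7% of the 10574 genes active in both lines. The members were chosen with earlier results of these data known, so these counts describe the members and do not test them. Both doses of a line share its DMSO library, so an error in that library would enter both. The median change over the 10 members was -1.05 and -0.83 in A673 and -0.53 and -0.89 in SKNMC, beside -0.27, -0.40, -0.32 and -0.55 over all active genes. Without the 3 enzymes, a split made after the values were seen, the other 7 members had medians of -1.53, -1.41, -1.53 and -1.42 and were below 0 in all 4 comparisons, apart from the sign changes under scaling given for ATF4 and DDIT4. The order of levels shifted with the treatment. PHGDH passed ATF4 to become the most abundant member at both doses in A673 and at 50 nM in SKNMC, while at 200 nM in SKNMC ATF4 (165 FPKM) was again above PHGDH (142).

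**Figure D1:**
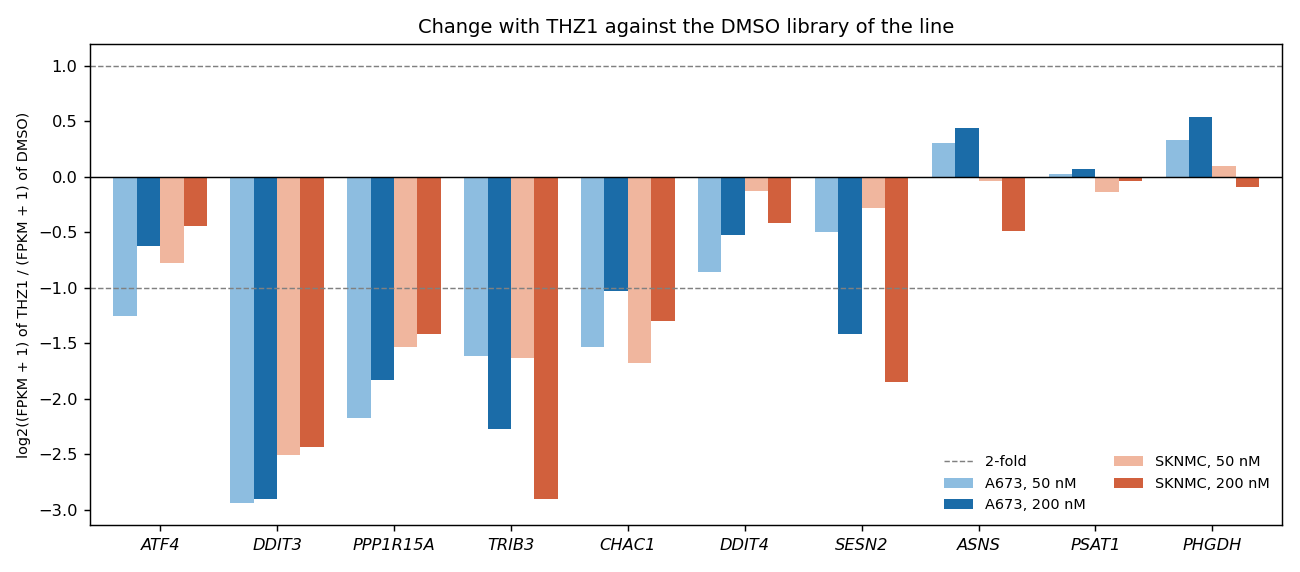
Log2 change of each of the 10 genes with THZ1 against the DMSO library of the line, with 1 added to FPKM; bars are the 4 comparisons (1 library each, no error bars possible) and dashed lines mark 2-fold. DDIT3, PPP1R15A, TRIB3 and CHAC1 lie below the lower line in all 4, from -1.03 to -2.94. ASNS, PSAT1 and PHGDH stay between -0.48 and 0.54 on the values as deposited, and some of their signs depend on the scaling.

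ATF4 (ENSG00000128272, chr22:39915700-39918691 in hg19, plus strand) is the factor that drives the programme. In A673 its level was 256 FPKM under vehicle, 107 under 50 nM THZ1 and 166 under 200 nM. The SKNMC values in the same order, which is kept for the genes that follow, were 225, 131 and 165 FPKM. Both lines thus had their lowest value at the lower dose and came to nearly the same level at 200 nM. The log2 changes were -1.25 and -0.63 in A673 and -0.78 and -0.44 in SKNMC, and the last of these turned to 0.12 when libraries were scaled to the 75th percentile of active genes. With ribosomal protein scaling both SKNMC values passed 2-fold instead, at -1.113 and -1.004. At 200 nM ATF4 was close to the middle of all active genes: 39.3% of them had lower changes in A673 and 56.0% in SKNMC. GENCODE lists 4 ATF4 pseudogenes, and how the authors' counting split reads among such copies is not stated.

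DDIT3 (ENSG00000175197, chr12:57910371-57914300, minus strand) encodes CHOP, a C/EBP-family factor that ATF4 induces and that promotes cell death under lasting stress. Its levels were 13.7, 0.915 and 0.969 FPKM in A673 and 10.7, 1.07 and 1.16 FPKM in SKNMC. All 4 THZ1 libraries were near 1 FPKM, far below both DMSO libraries, and the doses differed little. DDIT3 kept 6.69% and 7.08% of its DMSO level in A673 and 9.96% and 10.8% in SKNMC. Its log2 changes, -2.94, -2.90, -2.50 and -2.44, ranked 7 from the lowest of 11077 active genes in A673 at 50 nM and 19 of 11896 in SKNMC at 50 nM. At 200 nM the ranks were 44 and 129. These ranks hold with 1 FPKM added, where weakly expressed active genes could not reach so low a value even with all their RNA lost. Ranks without this addition were not computed. DDIT3 shares 982 bases with MARS, the methionyl-tRNA synthetase gene on the other strand, and the sources used here do not say if fragments were assigned by strand. MARS itself had log2 changes of -0.36 and -0.18 in A673 and -0.83 and -0.79 in SKNMC.

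**Figure D2:**
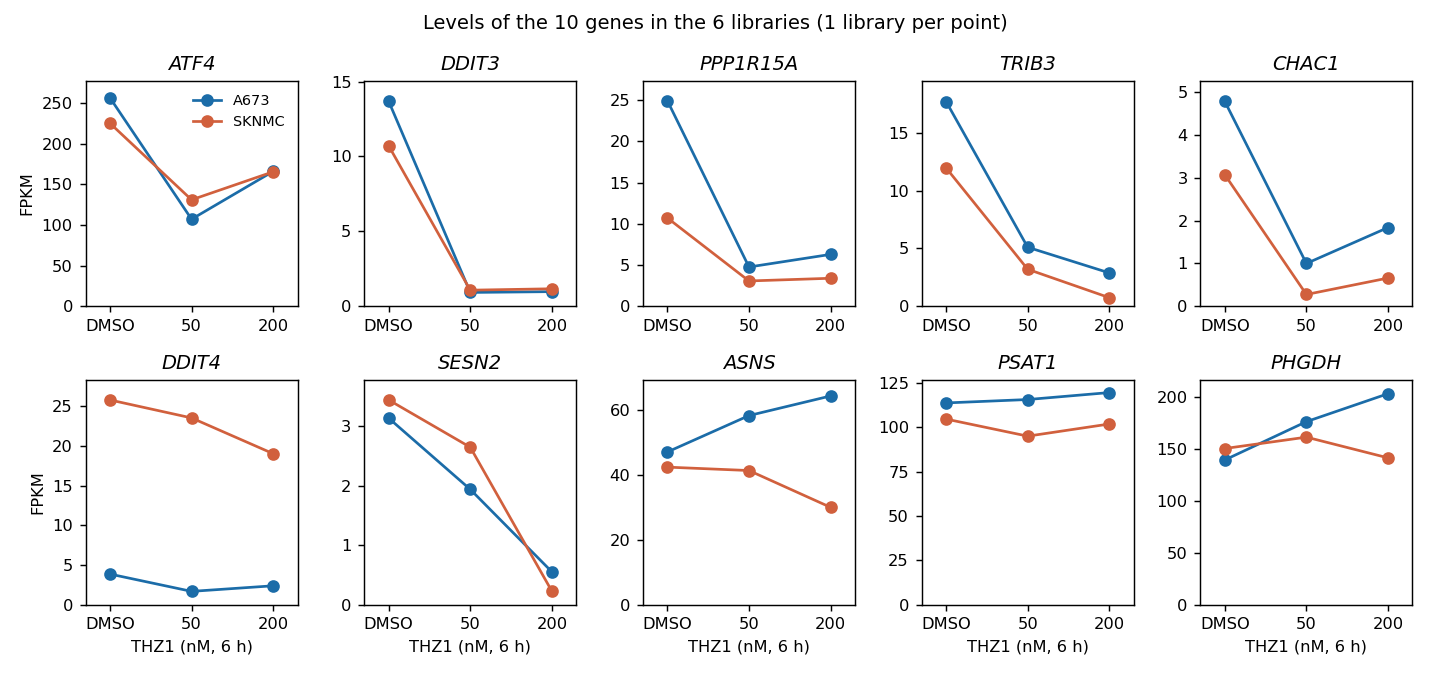
FPKM of each gene (vertical axes start at 0 and differ between panels) with DMSO, 50 nM and 200 nM THZ1 for 6 h in A673 (blue) and SKNMC (orange), 1 library per point. DDIT3 lies near 1 FPKM at both doses, ATF4 is lowest at 50 nM in both lines, SESN2 is lowest at 200 nM, and DDIT4 starts at 25.8 FPKM in SKNMC but 3.87 in A673.

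PPP1R15A (ENSG00000087074, chr19:49375649-49379314, plus strand), also known as GADD34, targets protein phosphatase 1 to eIF2 and so ends the response. Its levels were 24.9, 4.75 and 6.28 FPKM in A673 and 10.7, 3.06 and 3.38 FPKM in SKNMC. The untreated lines differed more than 2-fold in this gene, and in each line both THZ1 libraries lay below the DMSO library. The log2 changes were -2.17 and -1.83 in A673 and -1.53 and -1.42 in SKNMC, of which the last was -0.96 with 75th-percentile scaling. TRIB3 (ENSG00000101255, chr20:361261-378203, plus strand), a pseudokinase that ATF4 induces and that restrains ATF4 in return, was at 17.7, 5.10 and 2.88 FPKM in A673 and at 11.97, 3.19 and 0.736 FPKM in SKNMC. Unlike the members above, it was lower at the higher dose in both lines. Its log2 changes were -1.62 and -2.27 in A673 and -1.63 and -2.90 in SKNMC. In SKNMC at 200 nM it ranked 31 from the lowest of 11896 active genes, with the limit given for the ranks of DDIT3.

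CHAC1 (ENSG00000128965, chr15:41245160-41248710, plus strand) breaks down glutathione and is a sensitive marker of ATF4 activity. It was at 4.79, 0.998 and 1.84 FPKM in A673 and at 3.07, 0.273 and 0.657 FPKM in SKNMC. As with ATF4, the lowest value in each line was at 50 nM. At that dose CHAC1 kept 20.8% of its DMSO level in A673 and 8.88% in SKNMC, with log2 changes of -1.53 and -1.68. At 200 nM the changes were -1.03 and -1.30, and the first was -0.77 with 75th-percentile scaling. The levels are low, and how many fragments stand behind them is not known from FPKM. The summed level of PPP1R15A, TRIB3 and CHAC1 was 47.4, 10.8 and 10.996 FPKM in A673 and 25.7, 6.52 and 4.78 FPKM in SKNMC.

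DDIT4 (REDD1; ENSG00000168209, chr10:74033678-74035794, plus strand) and SESN2 (ENSG00000130766, chr1:28586038-28609002, plus strand) both restrain the growth kinase complex mTORC1, DDIT4 through the TSC complex and SESN2 through leucine sensing. DDIT4 was at 3.87, 1.69 and 2.39 FPKM in A673 and at 25.8, 23.5 and 19.02 FPKM in SKNMC. It passed 2-fold in neither line, with log2 changes of -0.86 and -0.52 in A673 and -0.13 and -0.42 in SKNMC. With 75th-percentile scaling the SKNMC values turned to 0.15 and 0.13, and with a pseudocount of 0.1 the A673 value at 50 nM was -1.15. SESN2 was at 3.13, 1.94 and 0.553 FPKM in A673 and at 3.44, 2.64 and 0.229 FPKM in SKNMC. In both lines the 200 nM library was far below the other two. Relative to DMSO, SESN2 was at 61.8% under 50 nM and 17.7% under 200 nM in A673, while SKNMC had 76.9% and 6.66%. Its log2 changes at 200 nM were -1.41 and -1.85.

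ASNS (ENSG00000070669, chr7:97481430-97501854, minus strand) makes asparagine, and PHGDH (ENSG00000092621, chr1:120202421-120286838, plus strand) and PSAT1 (ENSG00000135069, chr9:80912059-80945009, plus strand) catalyse the first steps of serine synthesis from a glycolytic intermediate. ASNS was at 47.2, 58.4 and 64.4 FPKM in A673 and at 42.5, 41.4 and 30.1 FPKM in SKNMC. PSAT1 was at 114, 116 and 119.7 FPKM in A673 and at 105, 95.1 and 102 FPKM in SKNMC. PHGDH was at 140, 176.5 and 203 FPKM in A673 and at 151, 162 and 142 FPKM in SKNMC. ASNS and PHGDH had their highest A673 value at 200 nM, ASNS had its lowest SKNMC value there, and PSAT1 varied little in either line. The log2 changes of ASNS were 0.30 and 0.44 in A673 and -0.04 and -0.48 in SKNMC, and those of PHGDH were 0.34, 0.54, 0.10 and -0.09. PSAT1 stayed between -0.14 and 0.07. PHGDH had a higher change than 93.1% of active genes in A673 at 50 nM and 97.6% at 200 nM. Some signs in this group depended on the scaling. Dividing by the 75th percentile turned ASNS in SKNMC to 0.25 and 0.07 and PSAT1 there to 0.15 and 0.53. PHGDH in SKNMC at 200 nM turned to 0.48. Dividing by the ribosomal protein median turned PSAT1 in A673 to -0.20 and -0.28 and took ASNS in SKNMC at 200 nM to -1.03, past 2-fold. PHGDH in SKNMC at 50 nM then turned to -0.23. ASNS and PHGDH in A673 stayed positive at both doses under these scalings, at 0.08 and 0.09 and at 0.11 and 0.18 with the ribosomal protein median. The summed FPKM of the 3 enzymes went from 301 to 351 and 388 in A673, and from 298 to 298 and 274 in SKNMC. GENCODE lists 5 pseudogenes of ASNS and 4 of PSAT1, and as for ATF4 the handling of shared reads is not stated.

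**Figure D3:**
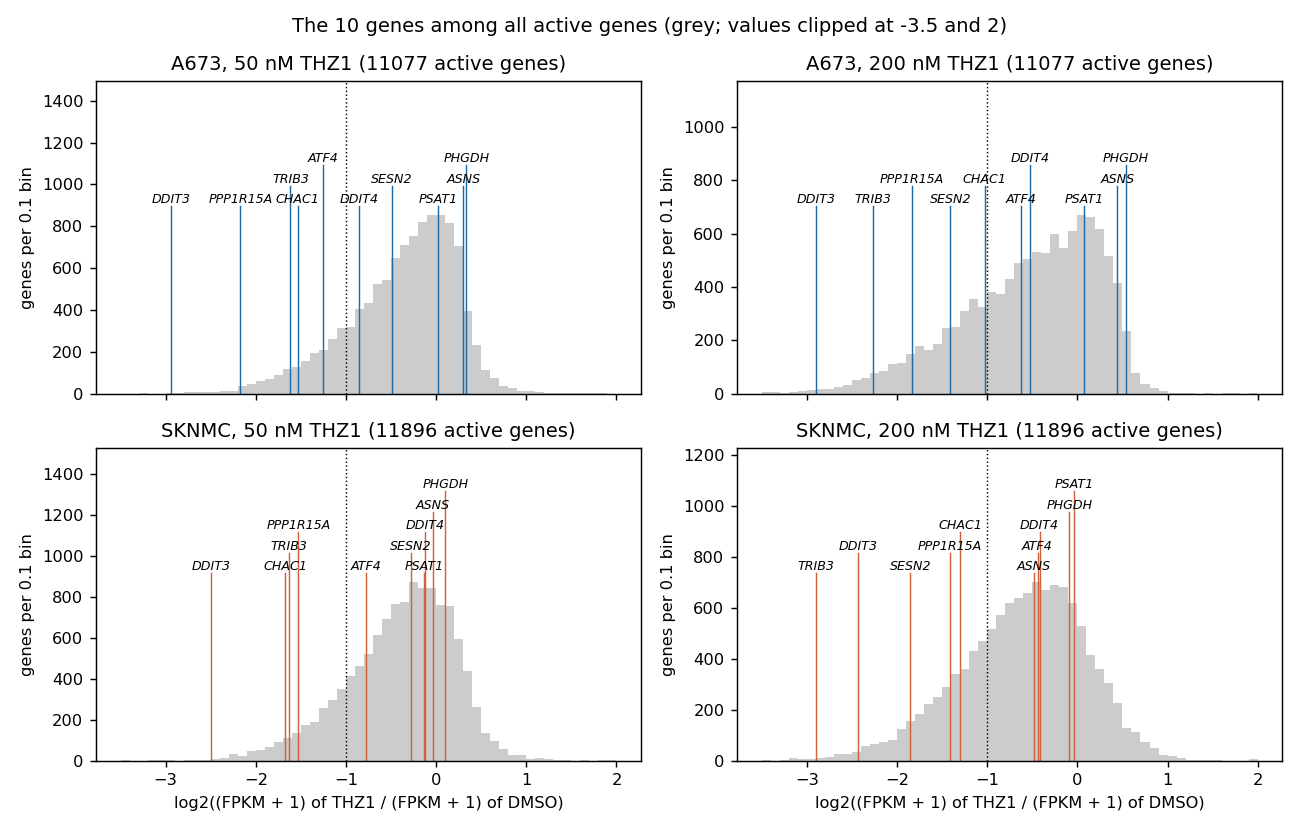
Number of active genes per bin of log2 change (grey, values beyond -3.5 and 2 placed in the outer bins) in each comparison, with the 10 genes marked by vertical lines; the dotted line is a 2-fold decrease. DDIT3 lies in the far left tail in all 4 panels, and PHGDH at the right edge of the bulk in A673.

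The doses were also set against each other within a line. With 1 FPKM added, no member in A673 differed at least 2-fold between 200 and 50 nM, where 7.44% of active genes were lower and 0.117% higher at the higher dose. In SKNMC 2 of 10 were at least 2-fold lower at 200 nM, TRIB3 with a log2 ratio of -1.27 and SESN2 with -1.57, against 8.39% of active genes, and none of the 10 was higher, against 0.37%. The same 2 genes had the lowest ratios in A673, -0.65 and -0.92. These counts depend on the added 1 FPKM for the weakly expressed members. SESN2 in A673 was at 1.94 and 0.553 FPKM, a log2 ratio of -1.64 with a pseudocount of 0.1 and -1.81 with none, so it then passed 2-fold. CHAC1 in SKNMC was at 0.273 and 0.657 FPKM, a log2 ratio of 1.02 with a pseudocount of 0.1 and 1.27 with none, and so was then at least 2-fold higher at 200 nM. Without regard to size, 5 of 10 members, ATF4, DDIT3, PPP1R15A, CHAC1 and PSAT1, were higher at 200 than at 50 nM in both lines, as were 30.0% of the genes active in both. Lower in both lines were 2 of 10, against 45.7%. Among the 5 higher in both lines, the largest ratios were those of ATF4 and CHAC1. On the log2 scale ATF4 had 0.63 in A673 and 0.34 in SKNMC, and CHAC1 had 0.51 and 0.38. With ribosomal protein scaling, the small ratios of DDIT3 and PSAT1 turned negative in both lines and that of PPP1R15A in SKNMC.

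The members also differed in gene structure. The deposited gene spans were 2.12 kb for DDIT4, 2.99 kb for ATF4, 3.55 kb for CHAC1, 3.67 kb for PPP1R15A and 3.93 kb for DDIT3, against a median of 31.7 kb over the genes active in both lines. TRIB3 (16.9 kb), ASNS (20.4 kb), SESN2 (22.97 kb) and PSAT1 (33.0 kb) were longer, and PHGDH (84.4 kb) was the longest. The 9 members with a canonical transcript in GENCODE had 3 or 4 exons (ATF4, CHAC1, PPP1R15A, DDIT3 and TRIB3) or 9 to 13 (PSAT1, SESN2, PHGDH and ASNS), with a median of 9 over active genes. The 4 genes lower in all comparisons all had 3 or 4 exons, as did ATF4, which was not among them. The share of active genes with 3 or 4 exons was not counted, and a link between exons and changes was not tested. The members lie on 9 chromosomes, with SESN2 and PHGDH both on chromosome 1.

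The genes most like a member in their 4 log2 changes were sought among the 5985 genes whose DMSO level exceeded 10 FPKM in both lines and that had no library at 0. Likeness was the Euclidean distance over the 4 comparisons. For ATF4 they were GGA1 (distance 0.22), MICALL1 (0.23) and DVL1 (0.29). Their lowest value was at 50 nM in both lines, which follows from choosing them by likeness to ATF4. GGA1 was at 20.1, 9.26 and 13.0 FPKM in A673. For DDIT3, the member with the lowest mean change, they were TFAP4 (0.33), PRR5L (0.44) and C1orf131 (0.44), and for PHGDH, the highest, they were PSME2 (0.068), GRP (0.12) and S100A11 (0.12).

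Around the 10 genes, 86 further genes of the pathway were grouped in 9 lists, all found, of which 77 were active in A673 and 81 in SKNMC. Of the active ones, 7 of 77 (9.09%) were at least 2-fold lower in A673 with the lower dose and 17 (22.1%) with the higher, below the 15.9% and 25.3% of all active genes. In SKNMC there were 11 of 81 (13.6%), below 15.8%, and 28 (34.6%), above 27.3%. The list medians together were -0.29 and -0.36 in A673 and -0.44 and -0.76 in SKNMC. Only SESN3, in SKNMC at 50 nM, was 2-fold higher, from 5.10 to 12.3 FPKM. SESN2 had a log2 change of -0.28 in the same library. Upstream of ATF4, the 4 eIF2 kinases had medians of -0.21 and -0.25 in A673 and -0.15 and -0.53 in SKNMC, close to the medians of all active genes (-0.27, -0.40, -0.32 and -0.55). EIF2AK3 (PERK, the kinase for misfolded protein in the endoplasmic reticulum), chosen after its values were seen, was at 3.43, 2.97 and 0.391 FPKM in A673 and at 3.79, 4.37 and 0.80 FPKM in SKNMC. Like SESN2, it was at least 2-fold lower only at 200 nM, in both lines. None of the other eIF2 kinases was so in any comparison. Of the 8 eIF2 and eIF2B subunits, 0 and 1 were 2-fold lower in A673 and 0 and 3 in SKNMC, and of the 4 phosphatase partners only 1, at 200 nM in SKNMC.

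Of the bZIP factors that pair with ATF4 or act beside it, 2 and 6 of 9 active ones were 2-fold lower in A673 at 50 and 200 nM, and 4 and 7 of 10 in SKNMC. These are 22.2%, 66.7%, 40% and 70% of the list, where 15.9%, 25.3%, 15.8% and 27.3% of all active genes were lower. CEBPB, a main ATF4 partner, went from 56.3 to 16.9 and 11.3 FPKM in A673 and from 51.4 to 23.0 and 10.1 FPKM in SKNMC. CEBPD, of the same family, was at 1.90, 0.603 and 0.227 FPKM in A673 and 8.54, 3.76 and 2.09 FPKM in SKNMC. The AP-1 subunit JUND was at 86.8, 30.0 and 23.6 FPKM in A673 and 49.4, 32.3 and 19.9 FPKM in SKNMC. All 3 had their lowest level at 200 nM in both lines, unlike ATF4. Among 9 active amino acid transporters in A673, 1 and 2 (11.1% and 22.2%) were 2-fold lower, under those shares of all active genes, and among 10 in SKNMC 3 and 7 (30% and 70%), over them. SLC38A2, which imports neutral amino acids, was the gene of this list that the naming rule took, at 268, 96.8 and 52.8 FPKM in A673 and 261, 105 and 46.8 FPKM in SKNMC.

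No gene of the serine, glycine and one-carbon list passed 2-fold in any comparison, with 9 active in A673 and 10 in SKNMC. Its medians were -0.03 and 0.10 in A673 and -0.22 and -0.28 in SKNMC, all above those of all active genes, as were the values of PHGDH and PSAT1. Among the other ATF4 targets 2 and 2 of 19 were 2-fold lower in A673, and 2 and 5 of 18 in SKNMC. These shares, 10.5% and 10.5% in A673 and 11.1% and 27.8% in SKNMC, were below or, in the last case, near the 15.9%, 25.3%, 15.8% and 27.3% of all active genes. The rule for naming took STC2, a secreted stress protein, at 5.49, 1.47 and 1.71 FPKM in A673 and 6.75, 1.52 and 1.10 FPKM in SKNMC, and HERPUD1, which serves degradation of endoplasmic reticulum proteins, with log2 changes of -1.34 and -1.94 in A673 and -0.89 and -1.53 in SKNMC. Among the relatives of the members, 1 and 2 of 6 (16.7% and 33.3%) were 2-fold lower in A673 and 2 and 4 of 8 (25% and 50%) in SKNMC. They included TRIB1, with -0.70, -1.98, -1.31 and -3.02, and CHAC2, with -1.73, -1.26, -1.54 and -1.88. TRIB1 thus had its lower values at 200 nM, as TRIB3 did. In the mTORC1 list 1 and 3 of 11 (9.09% and 27.3%) were lower in A673 and 0 and 1 (9.09%) in SKNMC, and MIOS, a subunit of the complex that SESN2 binds, had -1.32, -2.34, -0.96 and -1.73.

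**Figure D4:**
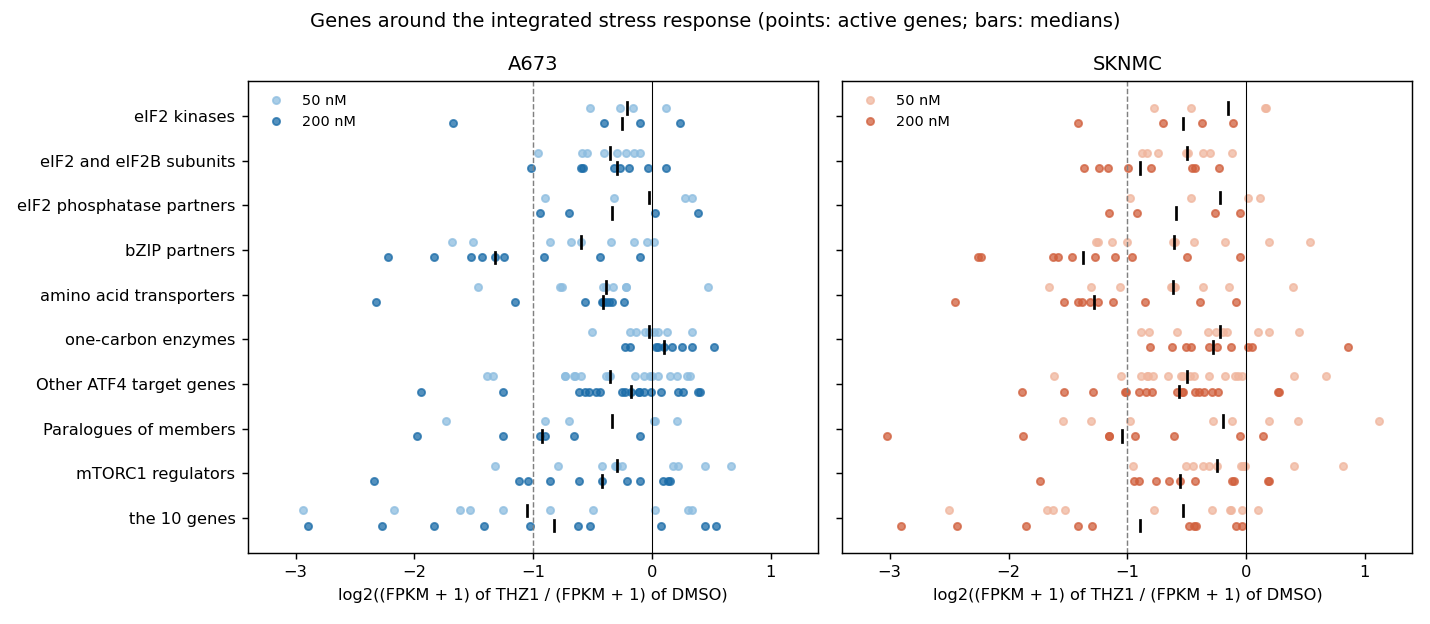
Log2 change of each active gene (points) of 9 lists around the integrated stress response and of the 10 genes, at 50 nM (light) and 200 nM (dark), in A673 (left) and SKNMC (right); black bars are medians and the dashed line is a 2-fold decrease. The bZIP partners shift left at 200 nM, to medians of -1.32 and -1.37, and the one-carbon enzymes stay right of the dashed line.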

How the data were processed

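The authors prepared TruSeq libraries, sequenced paired 100-bp reads on a HiSeq2000, aligned them with STAR to hg19 (Ensembl 75) and deposited FPKM per gene; their methods name StringTie and the submitters' processing notes Cufflinks, and versions are not given in the sources used here. The deposited log2 fold changes, against the DMSO library of each line, are the authors' own comparisons and were not used. Samples were grouped by title, which spells SKNMC as SKMNC; the table is titled as averages, but only 1 library is labelled for every condition, and each column was taken as that library. FPKM gives no counts, so the depth of a library and counting intervals are unknown; steps between the lowest values put THZ1 libraries at 89.0% to 96.8% of the depth of their DMSO library, on only 21 to 27 genes, which is rough.

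Ratios used a pseudocount of 1 FPKM, active genes more than 1 FPKM with DMSO, and calls a 2-fold change (Python 3.11.15, pandas 2.3.3, numpy 2.4.6). Gene starts were shifted by 1 base to count from 1. All 10 members are described. List genes were named where they passed 2-fold the same way in at least 3 of 4 comparisons, at most 4 per list. Alternatives were a pseudocount of 0.1, 3 scalings, other filters and a 1.5-fold threshold; ratios without a pseudocount were chosen after seeing the data. Members and lists were chosen with earlier results of these data known. The ratio step was run on A673 DMSO values with set changes put in, which checks its arithmetic alone.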

Additional observations from a re-analysis of the deposited data

Results flagged for a closer look

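ASNS and PSAT1 had changes of opposite sign in A673 and SKNMC at both doses. The signs of PSAT1 and those of ASNS in SKNMC depend on the scaling. The log2 changes of ASNS were 0.3024 and 0.4424 in A673 at 50 and 200 nM and -0.0354 and -0.4845 in SKNMC, and those of PSAT1 were 0.0239 and 0.0716 in A673 and -0.1378 and -0.0385 in SKNMC. With a single library for every condition, the contrast between A673 and SKNMC was not tested. Of the 10574 genes active in both lines, 464 (4.39%) were likewise above 0 at both doses in A673 and below 0 at both in SKNMC.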

How the results depend on the processing

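Of the 40 member changes against DMSO, 19 were at least 2-fold. None of these changed sign under the 5 other pseudocounts or scalings, but these settings could hardly reverse a value of that size. Of the 200 values so obtained, 2 fell short of 2-fold where the main value had passed it. Another 5 passed 2-fold where the main value had not, and 11 smaller values changed sign. No replicate could be left out, since each condition has 1 library, and no paired analysis was possible because there is 1 library per condition. Scaling to the 75th percentile placed the median of active genes between -0.07 and -0.06, and dividing by the ribosomal protein median moved it to -0.46 and -0.68 in A673 and -0.60 and -0.99 in SKNMC. The member median, -1.05 and -0.83 in A673 and -0.53 and -0.89 in SKNMC (50 and then 200 nM), turned into -0.8456, -0.5132, -0.2778 and -0.4450 with the 75th percentile and -1.235, -1.115, -0.8171 and -1.262 with ribosomal protein scaling. With a pseudocount of 0.1 it was -1.204, -1.003 and, in SKNMC at 200 nM, -1.065, and with none -1.228, -1.037 and -1.080. The background moved too. At a pseudocount of 0.1, A673 had 21.6% (50 nM) and 31.1% (200 nM) of its active genes 2-fold lower, with medians of -0.31 and -0.45. SKNMC had 22.5% and 34.3%, with medians of -0.36 and -0.64. Members passing were 6 and 5 in A673, then 4 and 5 in SKNMC. Without a pseudocount these member counts held, and the background shares became 22.4%, 31.8%, 23.5% and 35.0%. Requiring over 10 FPKM with DMSO gave a member median of -1.253, -0.6251 and, in SKNMC at 200 nM, -0.4634. This filter left out CHAC1 and SESN2 in both lines and DDIT4 in A673. Of the fewer members still counted, 3 were 2-fold lower at 200 nM in each line. The pathway list genes 2-fold lower were 11 of 77 in A673 at 50 nM without a pseudocount, against 22.4% of all active genes. With the 75th percentile SKNMC had 7 and 11 of 81, against 10.3% and 13.4%. A673 then had 11 of 77 at the higher dose, against 17.3%. With ribosomal protein scaling they were 23 and 49 of 81 in SKNMC, against 25.4% and 49.5%. Above 10 FPKM they were 6 and 18 in SKNMC, of fewer list genes than the 81. At 1.5-fold they were 22 and 26 of 77 in A673 and 31 and 46 of 81 in SKNMC. For the filter at 10 FPKM and the 1.5-fold threshold, the share of all active genes was not computed. The cause of these shifts was not tested.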
